A study of Mus musculus with 20 samples.

Results

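The colony-stimulating factors and their receptors were followed in liver and white adipose tissue (WAT) of staggerer and wild-type mice. The family was taken as 8 genes: the ligands Csf1, Csf2 and Csf3 and the receptor genes Csf1r, Csf2ra, Csf2rb, Csf2rb2 and Csf3r. The genes were chosen by name, with no threshold on any measured value, although their log2 changes between genotypes were known from earlier results when the family was put forward. Every probe carrying one of the names was included, whatever its signal. An exact match of names gave 9 probes for 7 genes. Csf2rb appears in the array's design only as Csf2rb1, its older RefSeq synonym, and the 3 probes of that name were added, for 12 of the 41174 probes that are not controls. The study set sg/sg mice, homozygous for staggerer, a natural deletion in the gene of the nuclear receptor RORα, against wild-type (WT) mice. The groups were sg/sg liver, WT liver, sg/sg WAT and WT WAT, with 5 arrays each and 5 mice of each genotype. Age (5 months), sex (male), strain (C57BL/6) and a 6-week diet of 35% fat were common to both genotypes. The staggerer deletion is in every cell of the animal, with no driver for a cell type, and the labels do not name the fat depot.

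Colony-stimulating factors are cytokines that keep myeloid cells alive and let them grow. Csf1 (M-CSF) is the main survival factor of macrophages and acts through the receptor tyrosine kinase Csf1r, which macrophages carry on their surface and which Il34 also binds. Csf2 (GM-CSF) binds an α chain of its own, Csf2ra, joined to a β chain that the receptors of Il3 and Il5 share. The mouse has a pair of β chain genes, Csf2rb for the shared chain and Csf2rb2 for a chain that serves Il3. Csf3 (G-CSF) drives neutrophil production through Csf3r. In fat tissue these receptors are carried mostly by resident and recruited myeloid cells, while Csf1 is made by stromal and fat cells among others.

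The probes that measured the β chains are shown first, because 2 neighbouring genes of similar sequence are involved. On build mm7 the Csf2rb probes lie on chromosome 15 between 63.7 and 68.1 kb from the Csf2rb2 probe at chr15:78365648-78365707. The third Csf2rb probe (A_52_P52618, chr15:78433690-78433749) holds a run of 30 bases of which 27 match the Csf2rb2 probe (A_51_P146753), printed with matching bases in capitals.
Csf2rb: GGCAGATCAAaTGTcCCTTGGTCTcTGTTC
Csf2rb2: GGCAGATCAAgTGTtCCTTGGTCTaTGTTC
For the other Csf2rb probes, the best 30-base alignment to the Csf2rb2 probe held 16 matching bases. One of them, the first Csf2rb probe (A_52_P664853), has mm7 coordinates of chr15:78429378-78429640, which span 263 bases for a 60-base probe, so its bases are split over more than one block of the genome. Its whole sequence is given because its change in WAT was the smallest of the 3.
Csf2rb probe 1: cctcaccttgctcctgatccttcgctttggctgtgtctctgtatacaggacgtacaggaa
How far the third Csf2rb probe and the Csf2rb2 probe also bind each other's transcript was not tested, and their values are reported as uncertain between these 2 genes. No exon annotation of mm7 was used, so the exon or untranslated region under each probe is not stated. The remaining probes lie on chromosome 3 (Csf1, 107559703 to 107559762), chromosome 11 (Csf2, 54204021 to 54204048, and Csf3, 98812339 to 98812398), chromosome 19 (Csf2ra, 61146986 to 61147045) and chromosome 4 (Csf3r, 125488697 to 125488756).

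Values are log2 intensities relative to the 75th percentile of the same array, so 0 means as bright as that percentile, and differences are sg/sg minus WT. The 75th percentile intensity ran from 646 to 898 on sg/sg liver, 818 to 1089 on WT liver, 1346 to 2054 on sg/sg WAT and 1936 to 2604 on WT WAT arrays. All 3 Rora probes were lower on every sg/sg array than on every WT array, by -2.88 to -2.81 in liver and -2.75 to -2.72 in WAT on the log2 scale, as the genotype labels say. Hepatocyte markers averaged 7.82 to 7.96 on sg/sg liver and 7.32 to 7.79 on WT liver arrays, and adipocyte markers 5.86 to 6.21 on sg/sg WAT and 4.90 to 5.60 on WT WAT arrays, so each tissue showed its own markers. Hepatocyte markers in WAT ranged from -3.12 to -0.68 on sg/sg and from -4.04 to -0.44 on WT arrays, highest on sg/sg replicate 5 and WT replicate 3. Probes entered the test of a tissue if 4 or more of its 10 arrays read them well above background. Tests are limma's moderated test, fitted to all probes of a tissue and adjusted with Benjamini-Hochberg, with 0.05 on the adjusted p as the threshold. Because the family was put forward with results of these arrays already known, its adjusted p-values describe these arrays and are not independent support.

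In WAT the receptors of the family were lower in sg/sg mice, while the ligands showed no change past the threshold. Of 11 family probes tested in WAT, 8 fell and none rose, where 21.9% of all probes tested passed the threshold, 9.15% as lower and 12.8% as higher. The 8 probes measured Csf1r, Csf2ra, Csf2rb, Csf2rb2 and Csf3r, that is, all 5 receptor genes by name. Csf2rb was less settled. Its probe 3 is uncertain between Csf2rb and Csf2rb2, and probes 1 and 2 passed in 3 and 2 of 10 fits without 1 array. With normexp background correction in place of the authors' processed signals, 2 of the 8 passed, Csf2ra and Csf2rb2. The calls over all adipose probes went from 7087 to 1486. With normexp Csf3r was at 0.03 and Csf2rb probes 1 and 2 at 0.17 and -0.03, so a fall of these probes depended on the processing. The median change of the 11 probes was -0.89, beside 0.08 for all 32315 probes tested. For 6 of the 11 probes no sg/sg array reached the lowest WT array, a separation that 20.8% of all tested probes showed, 8.68% as lower and 12.1% as higher. In bulk tissue, fewer cells of a type and less RNA per cell cannot be told apart. In liver 9 family probes were tested and 3 rose, all of Csf1r, where 14.7% of all probes passed, 8.26% as higher and 6.46% as lower. No family probe separated the genotypes in liver, where 12.3% of all probes did, 6.74% as higher and 5.52% as lower.

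**Figure D1:**
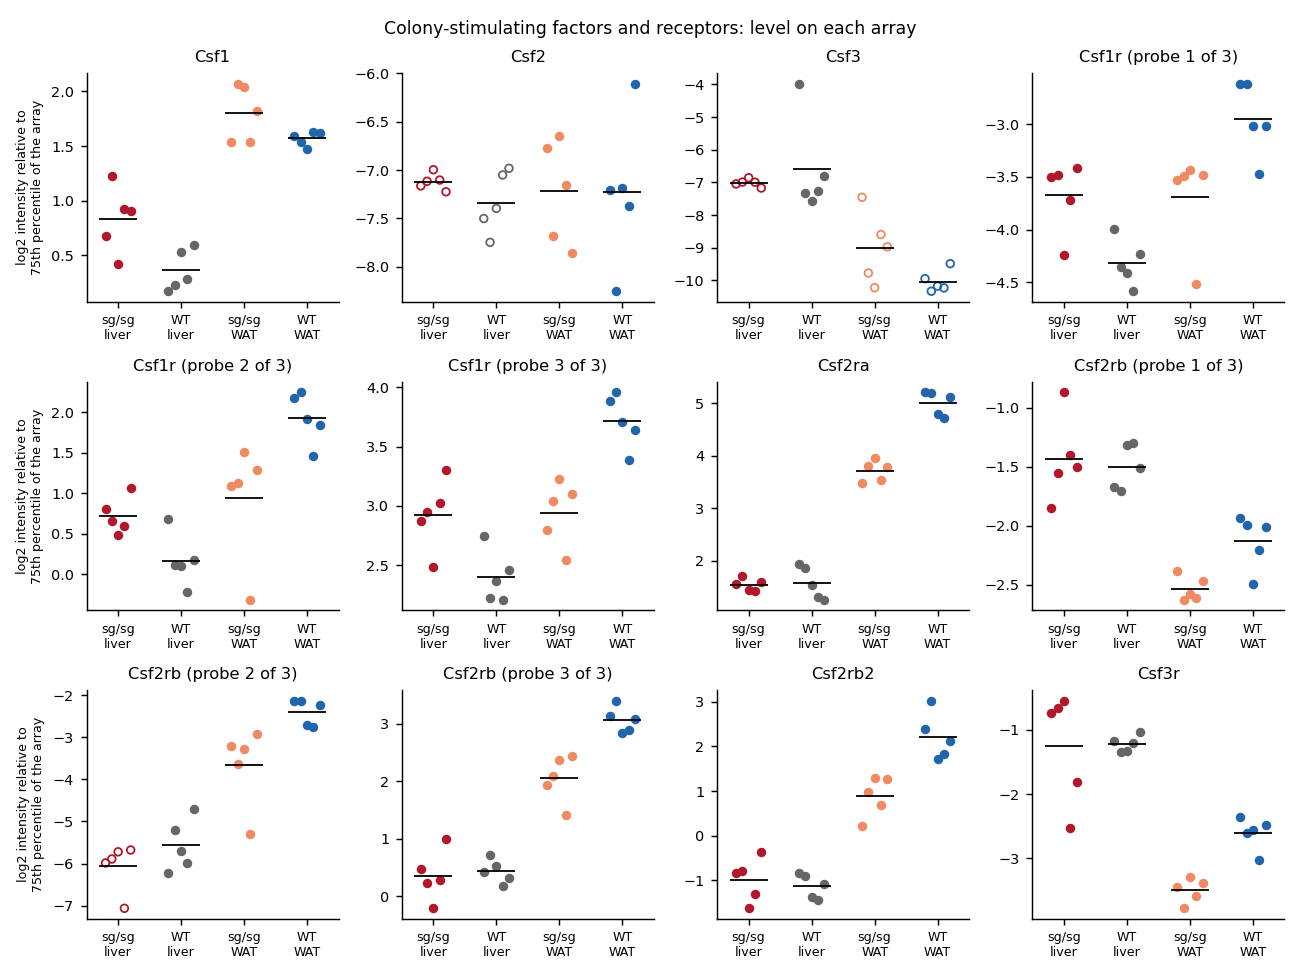
Level of each of the 12 probes on all 20 arrays, as log2 intensity relative to the array's 75th percentile (vertical axis), in sg/sg liver, WT liver, sg/sg WAT and WT WAT. Points are arrays, lines are means, and open points mark groups in which no array was well above background. Csf2ra, Csf2rb2, Csf3r, Csf2rb probes 2 and 3 and Csf1r probe 3 show no overlap of genotypes in WAT.

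Among the ligands, Csf1 was well measured, with 10 spots per array and a median SD between spots of 0.053. In WAT its level was 1.54, 2.07, 2.04, 1.53 and 1.82 in sg/sg mice, against 1.60, 1.54, 1.48, 1.63 and 1.62 in WT mice. The sg/sg mice spread more widely, 3 of them above all WT mice and the other 2 within the WT range. The difference of 0.23 (SE 0.13, limma adjusted p = 0.234) did not pass the threshold. In liver Csf1 was 0.68, 1.23, 0.42, 0.92 and 0.91 in sg/sg mice, against 0.17, 0.23, 0.53, 0.29 and 0.60 in WT mice. Here 4 of the 5 sg/sg mice lay above every WT mouse, and the difference of 0.47 (SE 0.15, 1.38-fold, limma adjusted p = 0.0594) missed the threshold. It passed with normexp, with an estimate of spread shared by both tissues, or when either WT replicate 5 or sg/sg replicate 3 was left out. On the only slide that held both genotypes of liver the difference was 0.18. Csf1 was thus not among the genes that fell in WAT, where its receptor did.

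Csf2 lay near the floor of the arrays. In WAT it was well above background on 3 sg/sg arrays and 4 WT arrays, with levels of -6.78, -7.68, -6.65, -7.15 and -7.85 in sg/sg mice, against -7.21, -8.25, -7.18, -7.38 and -6.11 in WT mice. The genotypes overlapped throughout, and the difference of 0.00 (SE 0.38, limma adjusted p = 0.995) leaves a wide interval. In liver Csf2 was not well above background on any array. Csf3 was well above background on 1 array of 20, WT liver replicate 1, at an intensity of 56.0, while the other liver arrays read 4.49 to 7.75 and the WAT arrays 1.71 to 11.6. No fold is given for Csf2 in liver or for Csf3, whose levels are only bounds.

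Il34, the second ligand of Csf1r, was higher in sg/sg WAT. It averaged 2.41 ± 0.16 in sg/sg WAT and 1.94 ± 0.20 in WT WAT (SD, n = 5 each), a rise of 0.46 (SE 0.12, limma adjusted p = 0.0255). In liver it averaged -0.84 ± 0.33 in sg/sg and -0.79 ± 0.22 in WT mice and did not pass the threshold (limma adjusted p = 0.853). Il3ra, the α chain of the Il3 receptor that pairs with the β chains, averaged 0.61 ± 0.24 in sg/sg WAT and 1.21 ± 0.25 in WT WAT (SD, n = 5 each) and fell by 0.60 on the log2 scale (SE 0.16, limma adjusted p = 0.0218). Its liver difference was 0.14 (SE 0.39, limma adjusted p = 0.832). Il5ra, the α chain of the Il5 receptor, was well above background on 2 sg/sg and 5 WT adipose arrays, with a difference of -1.44 (SE 0.57, limma adjusted p = 0.0974) that did not pass. The cytokines Il3 and Il5 were not tested in either tissue because of their dim probes.

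Csf2ra, the α chain that gives the GM-CSF receptor its specificity, had the smallest p of the family in WAT. Its level was 3.48, 3.81, 3.97, 3.53 and 3.78 in sg/sg mice, against 5.21, 5.19, 4.80, 4.72 and 5.12 in WT mice. The genotypes were apart by more than the whole spread within either of them. Csf2ra fell by 1.29 on the log2 scale (SE 0.14, 2.45-fold, limma adjusted p = 0.000688). On the 3 adipose slides, each of which held both genotypes, the difference was -1.33, -1.25 and -1.47, and leaving out any 1 array moved it only between -1.37 and -1.24.

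Csf2rb2, the β chain that serves Il3, gave 0.23, 0.97, 1.30, 0.68 and 1.27 in sg/sg WAT, against 2.39, 3.02, 1.71, 1.82 and 2.12 in WT WAT. All sg/sg mice lay below all WT mice. The fall was 1.32 on the log2 scale (SE 0.28, 2.50-fold, limma adjusted p = 0.0092), and -1.22, -0.84 and -2.20 within the 3 slides. For the shared β chain Csf2rb the 3 probes all passed as lower but gave unequal sizes. Probe 3, the brightest of them and the one with the stretch in common with Csf2rb2, read 1.95, 2.09, 2.38, 1.42 and 2.44 in sg/sg WAT, against 3.14, 3.41, 2.85, 2.89 and 3.08 in WT WAT. It fell by 1.02 (SE 0.20, 2.03-fold, limma adjusted p = 0.00585), with no overlap between genotypes.

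The other Csf2rb probes were dimmer. Probe 2 read -3.19, -3.64, -3.28, -5.29 and -2.91 in sg/sg WAT, against -2.13, -2.13, -2.70, -2.75 and -2.23 in WT WAT. Its difference of -1.28 (SE 0.40, limma adjusted p = 0.0451) owed much of its size and error to sg/sg replicate 4, without which it was -0.87 (SE 0.19, limma adjusted p = 0.0101). It no longer passed without any one of the WT replicates or of sg/sg replicates 1, 2 and 3. Probe 1, printed in full, read -2.38, -2.63, -2.57, -2.61 and -2.47 in sg/sg WAT, against -1.93, -1.99, -2.49, -2.20 and -2.01 in WT WAT, and WT replicate 3 fell within the sg/sg range. Its difference of -0.41 (SE 0.12, 1.33-fold, limma adjusted p = 0.0378) was the smallest of the 8, and it no longer passed without WT replicate 1, 2, 4 or 5 or sg/sg replicate 2, 3 or 5. In the main setting the direction was the same for all 3 Csf2rb probes, and the size was not settled by them. With normexp probe 1 turned to 0.17 and probe 2 was at -0.03.

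Csf1r probes 1, 2 and 3 lie on chromosome 18 of mm7, at 61499207 to 61499266, 61519183 to 61519543 and 61520169 to 61520228. Csf1r, the receptor through which Csf1 and Il34 sustain macrophages, was lower with each of its 3 probes in WAT, and 2 of them passed the threshold. Probe 3, the brightest, gave 2.80, 3.05, 3.23, 2.55 and 3.10 in sg/sg mice, against 3.89, 3.96, 3.71, 3.39 and 3.64 in WT mice. The groups did not overlap, and the fall was 0.77 on the log2 scale (SE 0.16, 1.71-fold, limma adjusted p = 0.00718). Within the 3 slides the difference was -1.0, -0.47 and -0.87. Probe 2 gave 1.09, 1.13, 1.51, -0.32 and 1.29 in sg/sg mice, against 2.17, 2.25, 1.92, 1.46 and 1.84 in WT mice. With sg/sg replicate 4 far below the rest, its difference of -0.99 (SE 0.32) passed with a limma adjusted p of 0.049996, and without that array it was -0.68 (SE 0.17, limma adjusted p = 0.0169). It no longer passed without any one of the WT replicates or of sg/sg replicates 1, 2 and 5. Probe 1, the dimmest, gave -3.53, -3.49, -3.44, -4.52 and -3.49 in sg/sg mice, against -2.62, -2.62, -3.02, -3.47 and -3.02 in WT mice. Its difference of -0.74 (SE 0.24, limma adjusted p = 0.0503) did not pass, and became -0.54 (SE 0.17, limma adjusted p = 0.0398) without sg/sg replicate 4 and -0.87 (SE 0.24, limma adjusted p = 0.0343) without WT replicate 4. The same mouse thus had the lowest value of its group with all 3 Csf1r probes.

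Csf3r, the G-CSF receptor that marks neutrophils and their precursors, was dim in WAT. It read -3.45, -3.78, -3.30, -3.59 and -3.38 in sg/sg mice, against -2.36, -2.61, -2.56, -3.04 and -2.49 in WT mice. The genotypes did not overlap, and the fall was 0.89 (SE 0.14, 1.85-fold, limma adjusted p = 0.00271). It was -1.23, -0.85 and -0.63 within the 3 slides. Of 16 tested neutrophil markers 4 fell in sg/sg WAT, among them S100a8, an abundant neutrophil protein, at -2.96 (SE 0.24), and Il1r2, a decoy receptor, at -3.11 (SE 0.23), where 9.15% of all adipose probes passed as lower. The list's median was -0.13, and S100a9, the partner of S100a8, was at 0.58 (SE 0.23), Fpr1 at 0.35, Elane at 0.96, Mmp9 at 1.67 and Camp at 0.86, none of them past the threshold. The part of neutrophils in the Csf3r value was not tested.

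**Figure D2:**
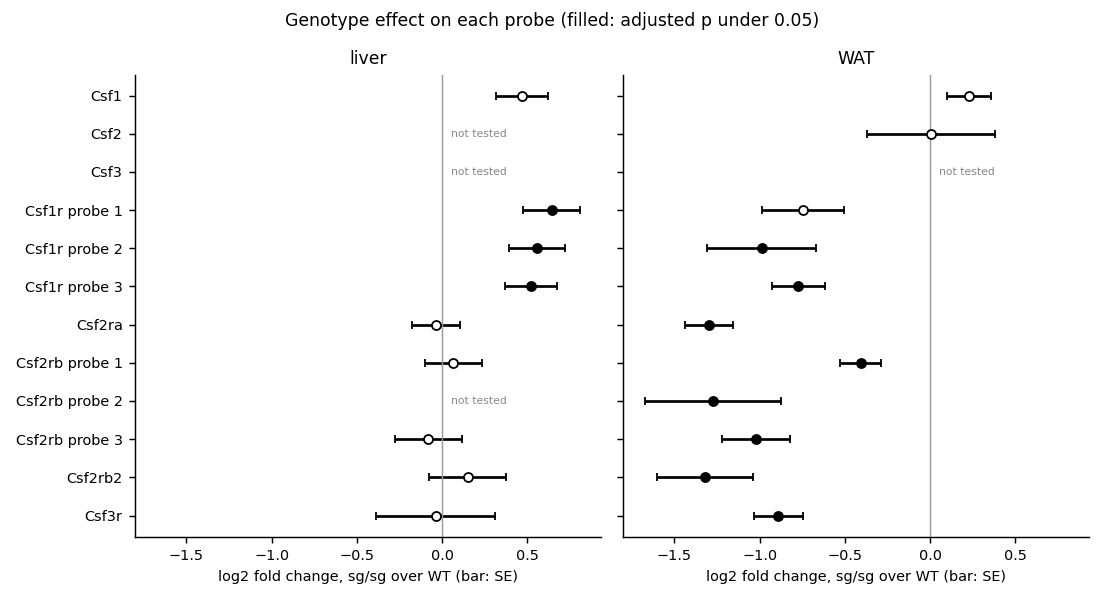
Log2 fold change of sg/sg over WT (horizontal axis) for each probe in liver (left) and WAT (right), with bars of 1 SE. Filled points passed the threshold: 3 Csf1r probes in liver, all higher, and 8 receptor probes in WAT, all lower.

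In liver the picture differed for the receptors. Csf1r probe 3 gave 2.87, 2.95, 2.48, 3.02 and 3.30 in sg/sg mice, against 2.75, 2.23, 2.37, 2.21 and 2.47 in WT mice. The genotypes overlapped through WT replicate 1, and 4 of 5 sg/sg mice lay above every WT mouse. It rose by 0.52 (SE 0.15, 1.44-fold, limma adjusted p = 0.0466), probe 2 by 0.56 (SE 0.16, limma adjusted p = 0.0462) and probe 1 by 0.64 (SE 0.17, 1.56-fold, limma adjusted p = 0.0308). Probe 2 ranged from 0.49 to 1.07 in sg/sg and from -0.22 to 0.68 in WT livers, and probe 1 from -4.24 to -3.41 in sg/sg and from -4.58 to -3.99 in WT livers. These calls sat close to the threshold: no Csf1r probe passed when any of 7 of the 10 arrays was left out (WT replicates 2, 3 and 4 and sg/sg replicates 1, 2, 4 and 5), though over all 10 such fits the differences stayed between 0.43 and 0.78. Slide and genotype were nearly confounded in liver, with 1 slide holding WT replicate 5 and sg/sg replicates 1 to 3, and on it the differences of probes 1, 2 and 3 were 0.49, 0.48 and 0.30.

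The other receptors did not pass in liver. Csf2ra read 1.56, 1.72, 1.46, 1.42 and 1.59 in sg/sg liver, against 1.94, 1.86, 1.54, 1.32 and 1.26 in WT liver, a difference of -0.03 (SE 0.14, limma adjusted p = 0.888). Every sg/sg value lay inside the WT range. Csf2rb2 read -0.83, -0.78, -1.62, -1.29 and -0.36 in sg/sg liver, against -0.84, -0.90, -1.37, -1.44 and -1.08 in WT liver, a difference of 0.15 (SE 0.22, limma adjusted p = 0.68). The 2 tested Csf2rb probes differed by 0.07 (probe 1, SE 0.17) and -0.08 (probe 3, SE 0.20). Csf3r stood out by its spread: it read -0.73, -0.65, -0.54, -2.52 and -1.81 in sg/sg liver, against -1.17, -1.35, -1.33, -1.20 and -1.03 in WT liver. The 3 sg/sg mice above all WT mice shared slide 2 with WT replicate 5, and the 2 below all WT mice were on slide 3, so mouse and slide cannot be told apart there. Its mean difference was -0.04 (SE 0.35, limma adjusted p = 0.952), and 0.38 within slide 2.

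The difference between the tissues was tested directly as the interaction of genotype and tissue over all 20 arrays. Of 9 family probes tested in both tissues, 6 had a genotype effect lower in WAT than in liver, where 19.8% of 24342 probes passed the interaction test and 9.42% passed it as lower. The 6 were the 3 Csf1r probes, at -1.39, -1.55 and -1.30 (limma adjusted p = 0.00326, 0.00653 and 0.000535 for probes 1, 2 and 3), Csf2ra at -1.26 (SE 0.20, limma adjusted p = 0.000266), Csf2rb probe 3 at -0.94 (SE 0.29, limma adjusted p = 0.0266; 0.0521 without WT liver replicate 4) and Csf2rb2 at -1.47 (SE 0.37, limma adjusted p = 0.0095). Csf1r is the gene of the family whose probes passed in opposite directions, 2 of its 3 being called higher in liver and lower in WAT, which 206 of 24342 probes were (0.846%). Csf1 at -0.24 (SE 0.20), Csf2rb probe 1 at -0.47 (SE 0.21) and Csf3r at -0.85 (SE 0.39) did not pass. For Csf3r the value without sg/sg liver replicate 4 was -1.17 (SE 0.28, limma adjusted p = 0.00742). With slide as a fixed block 2 of the 9 passed, Csf2ra and Csf3r. With normexp 4 of the 6 still passed, while Csf1r probe 1 shrank to -0.19 (limma adjusted p = 0.786) and Csf2rb probe 3, at -1.04, missed the threshold (limma adjusted p = 0.0608).

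The order of levels across the 4 groups placed several receptor probes highest in WT WAT. Csf2ra, Csf2rb probe 3 and Csf2rb2 were each highest in WT WAT, then sg/sg WAT, with both liver groups lower and overlapping each other. Csf1r probe 3 was highest in WT WAT, while sg/sg WAT overlapped with sg/sg liver, at means of 2.94 ± 0.27 and 2.93 ± 0.30 (SD, n = 5 each), and sg/sg liver with WT liver, at 2.40 ± 0.22. Csf2rb probe 1 ran the opposite way to probe 3, with both liver groups above both WAT groups and no overlap between tissues, and within groups its r with probe 3 was -0.23 over the 20 arrays. Csf3r was also brighter in both liver groups than in WT WAT by mean, with sg/sg WAT below all. Csf1 was brighter in both WAT groups than in both liver groups, with genotypes overlapping in each tissue. Tissues were hybridised on separate slides, so tissue and slide cannot be told apart for these levels.

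Most macrophage markers fell in WAT, as the receptors did, but not all of them. Of 28 tested in WAT, 18 fell and 1 rose, Timd4 at 1.12 (SE 0.29). Among all adipose probes 9.15% passed as lower and 12.8% as higher. Of the 9 markers that did not pass, Lyz2 was at 0.003, Mertk at 0.18, Clec4f at 0.21, Cd163 at 0.23 and Vsig4 at 0.31. The rest of the 9 were lower: C1qc at -0.52, Folr2 at -0.46, Cd14 at -0.41 and Marco at -0.21. The markers' median was -1.06. The markers' mean level ran from 0.77 to 1.20 on sg/sg arrays and from 1.68 to 2.46 on WT arrays without overlap. The largest changes by p were those of Itgax, an integrin of inflammatory fat macrophages, at -3.49 (SE 0.39), Lgals3, a galectin of lipid-laden macrophages, at -2.04 (SE 0.24), Mpeg1 at -2.03 (SE 0.27) and Gpnmb at -3.91 (SE 0.53). All 28 were well above background on enough arrays to be tested, Clec4f, a Kupffer cell marker, on only 2 arrays of each genotype. The mouse with the lowest Csf1r, sg/sg replicate 4, also had the lowest macrophage marker mean, at 0.77. In liver 5 of 26 macrophage markers rose, namely C1qa, C1qb, C1qc, Cd68 and Folr2, and none fell. The list's median was 0.45, while Itgax at -0.80 and Ccr2 at -0.85 were lower without passing. Of the receptors only Csf1r passed there. Among all liver probes 8.26% passed as higher and 6.46% as lower. The list's mean ran from 0.96 to 1.43 in sg/sg and from 0.58 to 1.22 in WT livers. The part of macrophage number in the receptor values was not tested.

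**Figure D3:**
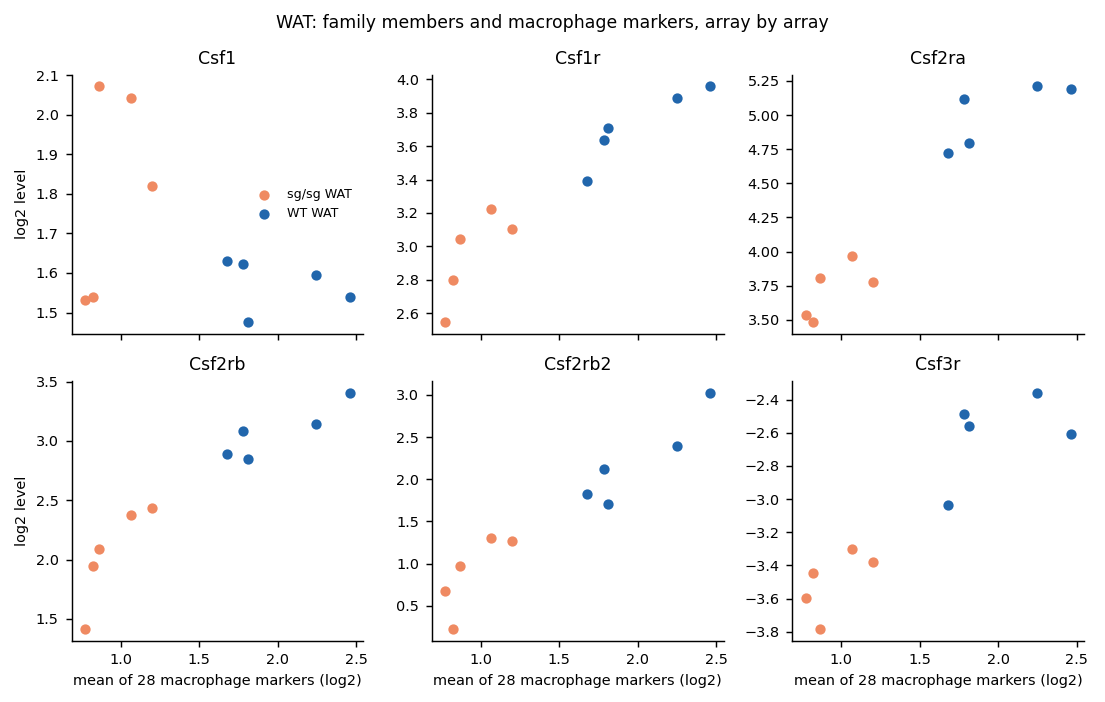
Log2 level of 6 family members (vertical axes; Csf1r probe 3 and Csf2rb probe 3 stand for their genes) against the mean log2 level of 28 macrophage markers (horizontal axes) on the 5 sg/sg WAT and 5 WT WAT arrays. The receptors are low where the markers are low, with the genotypes in separate groups, while Csf1 shows no such order.

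Within groups, the probes most like each member were named by Pearson's r over the 20 arrays after subtracting group means, as a description over arrays that share slides and scaling. For Csf1r these were Ptprc, the leukocyte antigen CD45, at 0.90 with probe 1 and 0.96 with probe 2, Lilra6 at 0.96 and Ifi205 at 0.93 with probe 2, Cd53 and Pld4 at 0.88 with probe 1, and BC013712, Fes and C1qb at 0.90 with probe 3. Csf2rb2 was like Cyth4 at 0.93 and the adhesion receptor Cd44 at 0.90. Csf2ra was most like Sash3 and Clec4a2 at 0.85 and Wdfy4 at 0.83. Csf2rb probe 3 came closest to Samhd1, Smpdl3b and Tmed10 at 0.84 each. Csf2rb probe 1 differed, with Lypd2 at 0.84, Htr5a at 0.83 and 5330438I03Rik at 0.80. Csf3r was closest to Mnt at 0.93, Mdga1 at 0.92 and Olfr668 at 0.91, and Csf1 to Zyx at 0.83, and to Sap30l and Atp23 at 0.81 each. Between the 3 Csf1r probes r was 0.82 to 0.91, and Csf1r probe 1 reached 0.76 with Csf2rb probe 3 and 0.06 with Csf3r.

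Kinases, adaptors and other genes that carry the signal of these receptors were counted as a list. Of 33 tested genes of CSF receptor signalling, 14 fell and 1 rose in sg/sg WAT, with a median of -0.31. Among all adipose probes 9.15% passed as lower and 12.8% as higher. The smallest p-values were those of the kinase Syk at -1.85 (SE 0.24, limma adjusted p = 0.00131), the phospholipase Plcg2 at -1.0 (SE 0.14, limma adjusted p = 0.00141), the adaptor Dok2 at -1.22 (SE 0.17, limma adjusted p = 0.0016) and the phosphatase Inpp5d at -1.12 (SE 0.16, limma adjusted p = 0.00177). These 4 genes are used mostly by blood cells. In liver the list's median was 0.19 over 31 tested genes, and Pim2, Grb2 and Plcg2, at 0.32, 0.19 and 0.48, did not pass (limma adjusted p between 0.0626 and 0.0652).

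Transcription factors of myeloid cells split in direction. In WAT 7 of 18 fell and 3 rose, with a median of -0.34, where 9.15% of all adipose probes passed as lower and 12.8% as higher. Irf5, a factor of inflammatory macrophages, fell by 1.58 (SE 0.22), Irf8, needed for monocytes and dendritic cells, by 1.22 (SE 0.22), and Egr2, an early response factor, by 2.26 (SE 0.31), while the clock-linked repressor Bhlhe40 rose by 1.62 (SE 0.23). In liver 3 of 17 rose and 2 fell, where 8.26% of all liver probes passed as higher and 6.46% as lower. Egr1 at -2.36 (SE 0.37) and Egr2 at -2.17 (SE 0.35) were lower, and Klf4 at 0.94 (SE 0.18) and Irf5 at 0.85 (SE 0.22) were among those that were higher. Irf5 thus passed in both tissues, in opposite directions, as 2 Csf1r probes did.

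Cytokines, sensors and factors known to induce the colony-stimulating factors were counted next. In WAT 7 of 17 fell and 1 rose, with a median of -0.22, where 9.15% of all adipose probes passed as lower and 12.8% as higher. Among those that fell were Tnf at -1.56 (SE 0.16, limma adjusted p = 0.000651), Il6 at -1.24 (SE 0.22), Il4 at -1.14 (SE 0.29) and Il1b at -0.94 (SE 0.25). The mean levels of these 4 were -6.25 to -4.09 in sg/sg and -5.01 to -3.16 in WT mice, so they were dim. The gene lists were not checked with normexp, with which no dim receptor probe of the family passed in WAT. In liver 5 of 15 rose and none fell, where 8.26% of all liver probes passed as higher and 6.46% as lower. Among those that rose were Il1a at 0.95 (SE 0.13, limma adjusted p = 0.00444), the NF-κB subunit Rela at 0.34 (SE 0.08), Il4 at 0.50 (SE 0.11) and Tlr4, the sensor of bacterial lipopolysaccharide, at 0.63 (SE 0.14).

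Markers of other cell types were counted in the same way, beside 9.15% of all adipose probes that passed as lower and 12.8% as higher. In WAT 7 of 12 dendritic cell markers fell, led by Ciita at -1.37 and Ccr7 at -1.35, with a list median of -0.75. The 5 that did not pass were Siglech at 0.82, Zbtb46 at 0.38, Xcr1 at 0.11, Clec10a at -0.41 and Cd209a at -0.71. Of 12 eosinophil and mast cell markers 2 fell, Ccr3 at -2.87 and Siglecf at -3.30, and of 16 T and NK cell markers 1 fell, Il7r at -3.52. The other members of both lists did not share these sizes: the median was 0.21 for eosinophils and mast cells, with Alox15 at 1.31 and Cma1 at 0.51, neither past the threshold, and 0.05 for T and NK cells. Fibroblast markers gave 4 lower and 1 higher of 12, and endothelial markers 1 higher of 12. Adipocyte markers gave 7 higher and 1 lower of 12, with Cidea at 1.31 and Pparg at 0.86 among the higher, and mesothelial markers 6 higher of 10, with Wt1 at 1.05 and Krt19 at 1.22. No hepatocyte marker of 10 passed in WAT, where Hpd at 1.68 and Cyp2e1 at 1.29 had unadjusted p under the threshold. In liver the lipid droplet and adipocyte genes Cfd at -6.32, Cidea at -5.43 and Cidec at -3.42 fell, 3 of 8 tested, while 4 of 11 hepatocyte and 4 of 12 endothelial markers rose, among them Tat at 0.88 and Egfl7 at 0.57. Among all liver probes 6.46% passed as lower and 8.26% as higher. What these markers' changes contribute to the family's values was not tested.

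**Figure D4:**
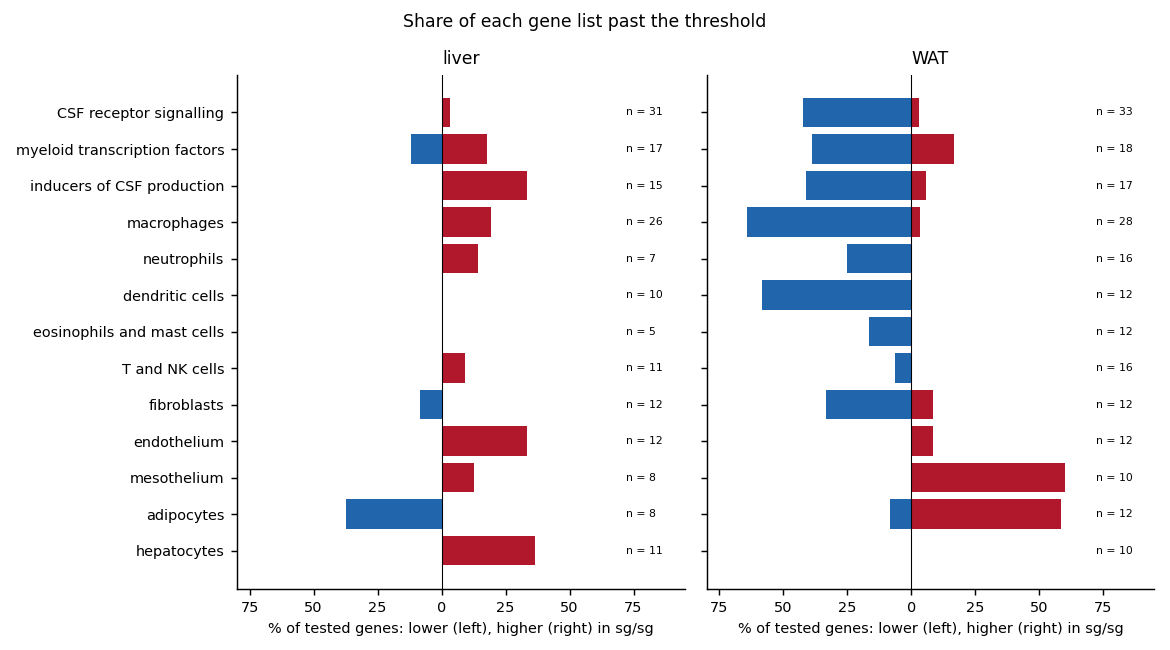
Share of the tested genes of each list that passed the threshold as lower (bars to the left) or higher (bars to the right) in sg/sg, in liver and WAT, with the number tested as n at the right of each row. Macrophages have 18 of 28 lower in WAT and 5 of 26 higher in liver, beside 9.15% and 8.26% of all probes tested.

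Upstream of their starts, promoters were read for 5 of the 8 genes, from RefSeq on build GRCm38.p6. The 3 receptors among them are printed because they fell together in WAT. The receptors Csf1r and Csf2rb, which had probes that fell too, were not among the 5. The 250 bases before each start were searched on both strands for AGGTCA, the core bound by RORα and other nuclear receptors, and GAGGAA, a core found in sites of the myeloid factor PU.1; these motifs cannot overlap each other by more than a base. AGGTCA was in none of the 5, and in 14% of 32851 promoters. GAGGAA was in the promoters of the 3 receptors that were read and in neither Csf1 nor Csf2, and in 23.3% of all promoters. Capitals mark GAGGAA or its reverse complement.
Csf2ra (chr19:61228419-61228668, minus strand): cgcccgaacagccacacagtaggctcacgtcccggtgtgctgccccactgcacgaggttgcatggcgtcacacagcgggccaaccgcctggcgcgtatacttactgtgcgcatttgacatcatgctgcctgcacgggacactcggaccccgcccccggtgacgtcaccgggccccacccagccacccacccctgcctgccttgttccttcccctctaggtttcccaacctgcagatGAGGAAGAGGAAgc
Csf2rb2 (chr15:78305722-78305971, minus strand): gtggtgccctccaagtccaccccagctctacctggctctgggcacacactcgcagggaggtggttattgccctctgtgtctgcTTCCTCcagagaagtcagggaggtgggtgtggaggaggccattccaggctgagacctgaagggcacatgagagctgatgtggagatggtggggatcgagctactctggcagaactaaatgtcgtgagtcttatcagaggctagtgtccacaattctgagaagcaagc
Csf3r (chr4:126024409-126024658, plus strand): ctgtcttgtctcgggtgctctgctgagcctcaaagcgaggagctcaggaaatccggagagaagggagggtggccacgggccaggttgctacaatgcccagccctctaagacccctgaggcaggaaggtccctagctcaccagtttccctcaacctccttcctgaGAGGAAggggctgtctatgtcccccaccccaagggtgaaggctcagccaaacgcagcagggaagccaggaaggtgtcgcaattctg
Csf2ra held 2 adjacent copies at the end nearest its start, Csf2rb2 held 1 on the opposite strand and Csf3r held 1. A match is a string of letters and not a measured binding site.

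The size of the WAT changes depended on how background was corrected, and among the receptor probes did so by brightness. With normexp on the raw spot signals in place of the authors' processed signals, the median of all adipose probes moved to 0.49, against 0.08 in the main setting. Relative to that median, the bright receptor probes stayed lower: Csf2ra was at -1.96 against -1.37 in the main setting, Csf2rb2 at -1.89 against -1.40, Csf2rb probe 3 at -1.60 against -1.10 and Csf1r probe 3 at -1.42 against -0.85. The dim receptor probes moved toward the median, with Csf3r at -0.46 against -0.97, Csf2rb probe 2 at -0.52 against -1.35 and Csf1r probe 1 at -0.25 against -0.82. The ligands did not share this: the dim Csf2 moved away from the median, to 0.83 against -0.07. The bright Csf1 crossed it, to -0.39 against 0.15. Of the 8 probes that fell, 2 still passed with normexp, Csf2ra (limma adjusted p = 0.0124) and Csf2rb2 (limma adjusted p = 0.0309). The bright Csf1r probe 3 and Csf2rb probe 3 lost their calls as well. Over all adipose probes the calls went from 7087 to 1486, so calls were lost across the array and not only in the family. Without subtracting the median, the normexp differences of the dim receptor probes were 0.03 for Csf3r, 0.23 for Csf1r probe 1, 0.17 for Csf2rb probe 1 and -0.03 for Csf2rb probe 2, so 3 of these 4 turned sign.

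**Figure D5:**
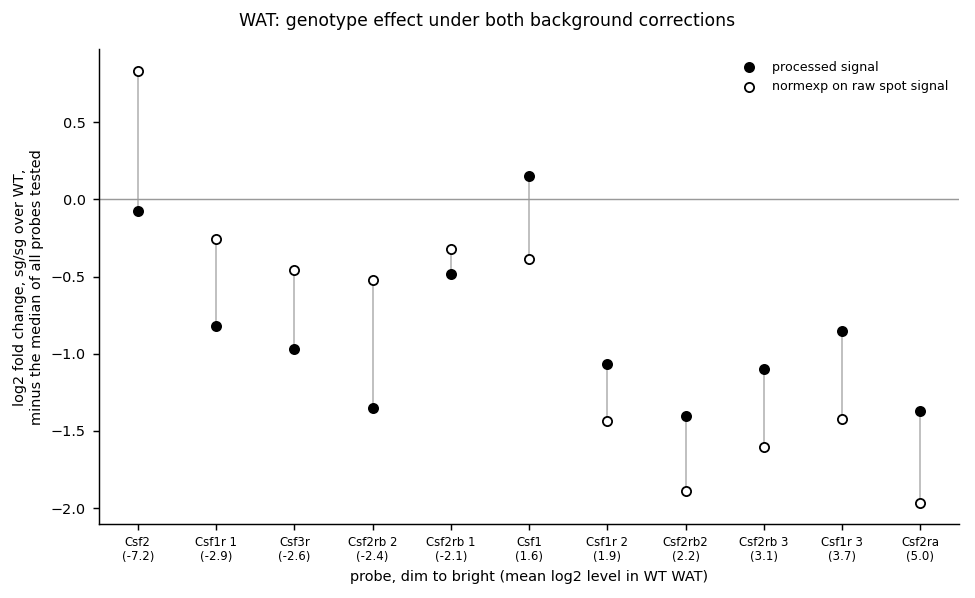
Log2 fold change of sg/sg over WT in WAT minus the median of all probes tested (vertical axis) for 11 family probes, ordered from dim to bright by their mean log2 level in WT WAT (horizontal axis, level in brackets). Filled points use the processed signals and open points normexp; the 5 brightest receptor probes lie at or below -0.85 with both.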

How the data were processed

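Total RNA of liver and WAT was hybridised to 20 Agilent 1-colour (Cy3) mouse genome arrays, 5 for each genotype and tissue. The series' design text gives 5 mice of each genotype as the source of both tissues. Which liver and adipose arrays share a mouse is not in the labels, and the test between tissues treats all 20 as separate. Agilent Feature Extraction 9.5 made the deposited intensities, per the file headers, on a design with mm7 coordinates, with background subtraction, detrending and surrogate values for dim spots. The deposited value table held the same intensities (highest relative difference 0), and no scaling between arrays is recorded. Spot flags and control types were taken as other deposited columns, per the file headers.

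From these, log2 of the processed intensity minus the array's 75th percentile was computed, with control spots left out, outlier spots set missing and spots of a probe averaged. A probe was tested when well above background on at least 4 of 10 arrays and missing on at most 2. Genotypes were compared in each tissue with limma 3.58.1 (R 4.3.3, lmFit and eBayes, two-sided), and between tissues by the interaction term over 20 arrays, with Benjamini-Hochberg adjustment over 24673 liver, 32315 adipose and 24342 shared probes. Precision is limited by the number of arrays. On simulated data with independent noise, log2 changes of 0.5, 1 (in either direction) and 2 were added to 50, 100 and 50 probes. The fits recovered 28%, 75% and 100% of the changed probes in liver and 12%, 57% and 86% in WAT. For the difference between tissues they recovered 4%, 49% and 86%. Far more probes were called in the real data, 3633 in liver and 7087 in WAT, which eases the adjusted threshold. These rates therefore need not hold for the real fits. A change that did not pass is not shown to be absent.

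Of 41174 probes, 22951 were named through their accession in RefSeq (GRCm38.p6) and 11758 by the scanner file alone. The family members and gene lists were chosen with earlier results of these data known. All family probes, all Rora probes and 5 genes that share receptor subunits were named whatever their values; from every other list, up to 4 tested genes with the smallest p per tissue were named, with a few others named after their values were seen. For each member, the 3 most correlated named probes were given. A few items that these rules would name are not reported here. Alternatives were normexp (offset 50), quantile and median scaling, other filters, slide and replicate blocks, 1 probe per gene, a shared estimate of spread, single slides and leaving out each array. They were examined for the family probes and for the counts over all probes, and not for the gene lists.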

Additional observations from a re-analysis of the deposited data

Results flagged for a closer look

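Of 42 groups of 5 arrays checked for a value far from the others, 3 had one, where chance alone gives about 5%. Csf3 in WT liver replicate 1 was at -3.97, with the nearest other array at -6.81. Csf1r probe 1 in sg/sg WAT replicate 4 was at -4.52, with the nearest at -3.53. Csf1r probe 2 in the same mouse was at -0.32, with the nearest at 1.09.

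The genotype effect differed between tissues, by the interaction test, for 6 probes, as WAT minus liver on the log2 scale. Csf2rb2 differed by -1.47, Csf2ra by -1.26 and Csf2rb probe 3 by -0.94. The 3 Csf1r probes differed by -1.39 (probe 1), -1.55 (probe 2) and -1.30 (probe 3). Their explanation was not tested.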

How the results depend on the processing

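In liver the 3 calls became 0 with median scaling, with no filter on dim probes, with slide as a fixed block and within slide 2, and 1 with slide as a random block and with the replicate block. With 1 probe per gene 1 of 6 passed, that of Csf1r, whose 3 probes then counted once. At those counts of 0, the unadjusted p was under 0.05 for 4, 4, 0 and 0 probes (limma). Leaving out 1 array gave 0 to 3 calls. In WAT the 8 calls became 2 with normexp and 5 with no filter. With 1 probe per gene 5 of 7 passed, which were the 5 receptor genes. Csf2rb was represented there by probe 3, which is uncertain between Csf2rb and Csf2rb2. The calls were 0 within slides 4, 5 and 6, where 3 or 4 arrays each left 8, 6 and 3 probes with an unadjusted p under 0.05 (limma). Leaving out 1 array gave 5 to 9 calls, 5 without WT replicate 1, 2 or 5 or sg/sg replicate 2. For the difference between tissues the 6 calls became 2 with slide as a fixed block, and 5 to 7 without 1 array. Under normexp 2 of the adipose values that had passed turned sign, Csf3r to 0.028 and Csf2rb probe 1 to 0.17, as did Csf1r probe 1, which had not passed, to 0.23. The 6 calls of the difference became 4 with normexp. The cause was not tested. Over all probes, the 3633 liver calls became 1239 with no filter, 1662 with the replicate block, 3 with slide as a fixed block and 0 within slide 2 (1976 at an unadjusted p under 0.05, limma). The 7087 adipose calls became 1486 with normexp and 4482 with the replicate block, and were 0 within slides 4, 5 and 6 (4786, 5048 and 4311 at an unadjusted p under 0.05, limma), and the 4824 calls of the difference 2700 with normexp and 788 with slide as a fixed block. Same-numbered sg/sg and WT arrays correlated at -0.11 to 0.17 in liver and -0.14 to 0.09 in WAT, so the numbers do not pair mice across genotypes. Same-numbered WAT and liver arrays correlated at -0.10 to 0.10 in sg/sg and -0.04 to 0.17 in WT mice. The same number was the best match for 2 of 5 pairs in each genotype. With the replicate block the family count was 1 in liver, 8 in WAT and 6 for the difference. The effect of mice shared by both tissues was not tested, because the labels do not match them. Among all liver calls, 56.1% were higher in the main setting, 65.6% with normexp, 49.0% with quantile and 28% with median scaling. Dim probes near background (Csf2, Csf3) limit what can be read.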
